A study of Mus musculus with 8 samples.

Results

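The 3 genes C1qa, C1qb and C1qc encode the subunits of complement C1q. They were taken by symbol from 12701 genes measured by RNA sequencing in mouse alveolar macrophages. All 3 were found. They were chosen by their measured expression levels, which differed between the groups of this study, so their own levels are described without a test. C1q is the recognition molecule of the classical complement pathway. Each subunit has a collagen-like stalk and a globular head, the A, B and C chains assemble into a bouquet-like hexamer of trimers, and the proteases C1r and C1s join it to form C1. C1q binds antibody complexes and dying cells, and tissue macrophages are its main source. Resting alveolar macrophages are known to make little of it, unlike interstitial macrophages of the lung.

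The macrophages were sorted from lungs of C57BL/6 mice in 3 groups, with 3 libraries from naive mice without tumor, 2 from mice with KP tumors at day 15 (d15) and 3 from mice with KP tumors at day 35 (d35). Cultured KP tumor cells (KP or KP-GFP, per the protocol) had been given through the tail vein, so lung foci arose from injected cells and not from lung epithelium. The protocol's stated range of harvest days does not reach day 35, and the true age of the d35 tumors is therefore not settled. Neither the sorting gate nor the number of mice behind each group is stated. The p-values below therefore describe variation among libraries, which need not be variation among mice.

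The libraries held 27465745 to 39572173 recovered reads and 12505 to 12644 genes with a read. Markers of the labelled cell type were abundant in all of them. The sialic acid lectin gene Siglecf, which marks alveolar macrophages, was at 557 to 750 scaled CPM (read counts relative to a library size that the authors had scaled). Of the other cells' lists, the member with the highest mean was Batf3 for dendritic cells (4.02 to 9.19), Mmp8 for neutrophils (85.1 to 173), Cd4 for T and NK cells (0.701 to 1.56) and Ms4a1 for B cells (1.54 to 5.03). It was Calcrl for endothelium (96.0 to 176), Col3a1 for fibroblasts (1.35 to 10.7) and Epcam for epithelium and tumor (85.9 to 216). In bulk RNA, fewer cells of a type and less RNA per cell cannot be told apart. The part of other cells in the C1q values was not tested.

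The C1q genes lie side by side on the minus strand of chromosome 4 (GRCm38), each protein coding with 3 exons. C1qb spans 136880129 to 136886187, C1qc 136889804 to 136893065 and C1qa 136895917 to 136898803. RefSeq start-site windows, 250 bases before to 50 after the start, were matched for C1qb and C1qc. They are shown because the genes moved together. Capitals mark matches to TGCTGA, a half-site of the MAF family of transcription factors, and to GAGGAA, a core bound by PU.1 and related ETS factors, on either strand. Both sequences are GRCm38.p6, minus strand, 5′ to 3′, from chr4:136886151-136886450 for C1qb and chr4:136892865-136893164 for C1qc.
C1qb: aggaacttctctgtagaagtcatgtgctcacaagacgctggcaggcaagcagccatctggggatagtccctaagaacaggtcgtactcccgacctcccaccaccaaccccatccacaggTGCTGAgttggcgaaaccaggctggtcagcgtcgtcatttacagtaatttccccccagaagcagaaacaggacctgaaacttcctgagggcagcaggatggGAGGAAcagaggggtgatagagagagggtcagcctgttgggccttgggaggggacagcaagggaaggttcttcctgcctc
C1qc: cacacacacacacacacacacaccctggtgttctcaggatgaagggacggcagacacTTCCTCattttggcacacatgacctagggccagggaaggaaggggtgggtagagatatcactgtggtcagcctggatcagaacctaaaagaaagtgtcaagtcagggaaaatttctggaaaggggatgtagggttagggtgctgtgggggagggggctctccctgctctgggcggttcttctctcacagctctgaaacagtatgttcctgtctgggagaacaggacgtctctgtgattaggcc
The C1qb window held 1 TGCTGA, starting 131 bases before the start site, and 1 GAGGAA, starting 30 bases before it. The C1qc window held 1 GAGGAA on the other strand (printed as TTCCTC), starting 193 bases before the start. Of 32851 windows of this kind in the table, 19.5% held TGCTGA and 28.3% held GAGGAA on either strand, with no overlap between the matches shown. Such matches are frequent, and they are descriptions of letters, not binding sites.

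C1q transcripts were scarce in naive macrophages, somewhat higher at d15 and much higher at d35. C1qb, the B chain gene and the most abundant of the 3 per length at d15 and d35, was at 0.454, 1.77 and 1.57 scaled CPM in the naive libraries. It was at 5.46 and 9.11 in the d15 libraries and at 156, 43.8 and 98.5 in the d35 libraries. The groups did not overlap, and replicate 2 was the lowest d35 library, while replicate 1 was the lowest naive one. C1qa, the A chain gene, was at 0.454, 1.32 and 1.33 in naive, at 1.94 and 4.17 in d15 and at 67.8, 17.7 and 35.5 in d35 libraries. C1qc, the C chain gene, was at 0.286, 0.902 and 0.795 in naive, at 2.56 and 4.99 in d15 and at 76.0, 19.3 and 40.6 in d35 libraries. The same libraries were thus high and low for each subunit within d15 and d35. For all 3 genes every d35 library lay above every d15 library and every d15 library above every naive one, an order held by 2.32% of the 11273 genes tested (261), which the choice of the genes already fixed. C1qc passed the filter for testing through tumor libraries alone, since no naive library reached 1 scaled CPM.

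**Figure D1:**
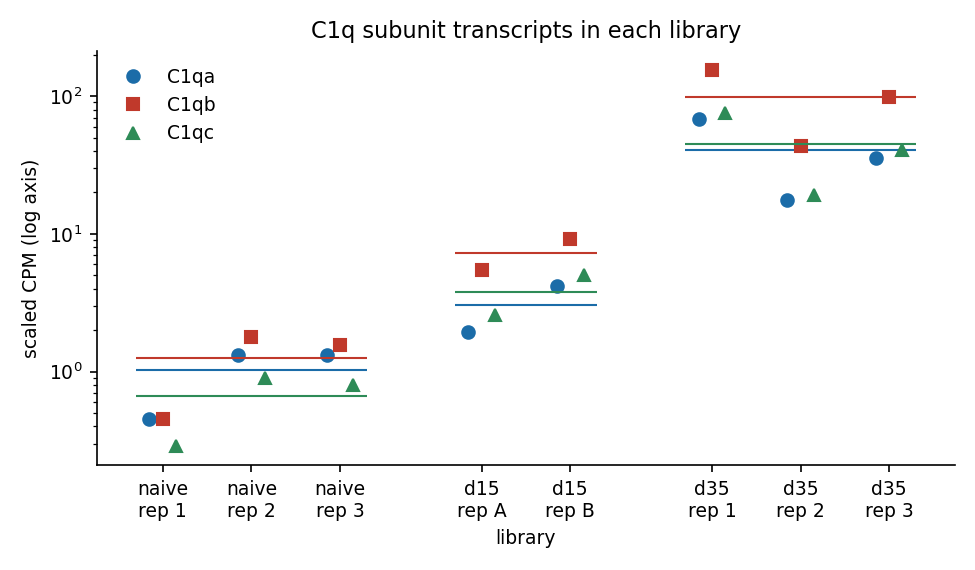
Scaled CPM (log axis) of C1qa, C1qb and C1qc in each of the 8 libraries; lines are group means. All 3 genes step up from naive to d15 to d35 without overlap, and d35 replicate 2 (17.7 to 43.8) is the lowest d35 library for each.

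In reads, naive libraries held 34, 160 and 103 C1q reads summed over the 3 genes, d15 libraries 304 and 601, and d35 libraries 8628, 2651 and 6674. At naive levels a single gene therefore rested on 8 to 71 reads, against 580 to 4485 at d35, so the naive values carry the larger counting error. The summed level in d35 replicate 1 (299 scaled CPM) was well above that in d35 replicate 2 (80.7). Ranked by scaled CPM per kb of transcript among all genes with a length, C1qb stood at the 85.5th to 96.6th percentile in d35 libraries. It stood at the 43.7th and 54.0th percentile in d15 and at the 16.6th to 27.2nd in naive libraries. C1qa ranked at the 69.7th to 91.0th percentile at d35 and C1qc at the 68.5th to 90.7th, against the 16.9th to 25.1st and the 12.5th to 20.1st in naive libraries.

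At d35 the group mean of C1qb was 99.3 ± 56.0 scaled CPM, against 1.26 ± 0.708 in naive macrophages (SD, n = 3 each), a ratio of means of 78.5. The ratio was 68.5 for C1qc (45.3 ± 28.6 against 0.661 ± 0.329) and 39.0 for C1qa (40.3 ± 25.4 against 1.03 ± 0.502). On the log2(value + 1) scale, which understates changes of genes near 1, the d35 minus naive differences were 5.35 ± 0.40 for C1qb, 4.62 ± 0.40 for C1qc and 4.18 ± 0.41 for C1qa (± SE). They ranked 4th, 9th and 15th among the 11273 differences. Even the lowest d35 library exceeded the highest naive library by a ratio of 24.8 for C1qb, 21.4 for C1qc and 13.3 for C1qa. The spread among d35 libraries was wide, with the highest 3.56 to 3.94 times the lowest, but small beside these differences.

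At d15 the differences from naive macrophages were smaller, and each rested on 2 tumor libraries. C1qb averaged 7.29 ± 2.58 scaled CPM at d15 (SD, n = 2), against 1.26 ± 0.708 in naive macrophages (SD, n = 3), a ratio of means of 5.76. C1qc averaged 3.77 ± 1.72 against 0.661 ± 0.329, a ratio of 5.71. C1qa averaged 3.06 ± 1.58 against 1.03 ± 0.502, a ratio of 2.96. The log2(value + 1) differences were 1.89 ± 0.45, 1.5 ± 0.45 and 0.97 ± 0.45 (± SE) for C1qb, C1qc and C1qa, and the lowest d15 library of C1qa was 1.46 times the highest naive one. For the same comparison, the authors' deposited table gives log2 fold changes of 2.40 for C1qb, 2.29 for C1qc and 1.44 for C1qa, the same order. Those are not log2(value + 1) differences, and they come from the same study, so the shared order is not independent. With edgeR on recovered reads the log2 differences were 2.5 for C1qb, 2.5 for C1qc and 1.55 for C1qa. C1qa was thus the closest of the 3 to its naive level. Without d15 replicate B the mean log2(value + 1) difference of the 3 genes was 1.08, and without d15 replicate A it was 1.82, against 1.45 with both.

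Between the tumor times the 3 subunits differed by similar amounts. Ratios of the d35 mean to the d15 mean were 13.2 for C1qa, 13.6 for C1qb and 12 for C1qc, with log2(value + 1) differences of 3.21 ± 0.45, 3.46 ± 0.45 and 3.12 ± 0.45 (± SE). The d15 and d35 comparisons share the naive libraries and this one shares the tumor libraries with both, so the 3 sets of values are not independent. All 3 genes kept their direction under every alternative run.

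How the subunits varied together is clearest in their ratios within a library, which do not depend on library scaling. Across the d35 libraries each level varied by 3.56 to 3.94 times, while the ratio of C1qc to C1qa reads stayed between 1.09 and 1.14. The ratio of C1qb to C1qa stayed between 2.30 and 2.78, and that of C1qb to C1qc between 2.05 and 2.43. In naive libraries the C1qc to C1qa ratio lay between 0.595 and 0.679 and the C1qb to C1qa ratio between 1.00 and 1.34, below every tumor library. The d15 libraries, at 1.20 and 1.32 for C1qc to C1qa and at 2.19 and 2.83 for C1qb to C1qa, were on the side of the d35 libraries. The C1qb to C1qc ratio overlapped between groups, at 1.62 to 2.00 in naive, 1.83 and 2.14 in d15 and 2.05 to 2.43 in d35 libraries. Over the 8 libraries the groups form separate clusters, so no pooled correlation between subunits is given as a result.

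As shares of the summed C1q reads, C1qa made up 38.2%, 33.1% and 35.9% in the naive libraries, 19.4% and 22.8% at d15 and 22.6%, 21.9% and 20.3% at d35. The naive shares lay above all tumor shares. The exact 95% interval of naive replicate 1 (22.2% to 56.4%, from 34 reads) reached into the range of the tumor libraries, but those of naive replicate 2 (25.9% to 41.0%) and naive replicate 3 (26.7% to 46.0%) lay above the d35 shares. With reads pooled within a group, C1qa took 34.7% in naive (29.3% to 40.4%), 21.7% at d15 (19.0% to 24.5%) and 21.7% at d35 (21.1% to 22.3%). The pooled intervals cover counting error and not the spread among libraries. The shares of d35 replicates 1 and 3 (22.6% and 20.3%) lay outside the pooled d35 interval. C1qb took 41.8% ± 3.18 in naive (n = 3), 52.4% ± 3.55 at d15 (n = 2) and 54.2% ± 2.22 at d35 (n = 3, SD). C1qc differed least between the groups, at 22.5% ± 1.09 in naive, 26.5% ± 1.15 at d15 and 24.2% ± 1.09 at d35. Correcting for transcript length, which is 1040 bases for C1qa, 1088 for C1qb and 1203 for C1qc, left C1qa at 37.6% ± 2.66 in naive, 22.4% ± 2.55 at d15 and 22.9% ± 1.27 at d35. The shares come from the values by which the genes were chosen, so the difference between groups was not tested.

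**Figure D2:**
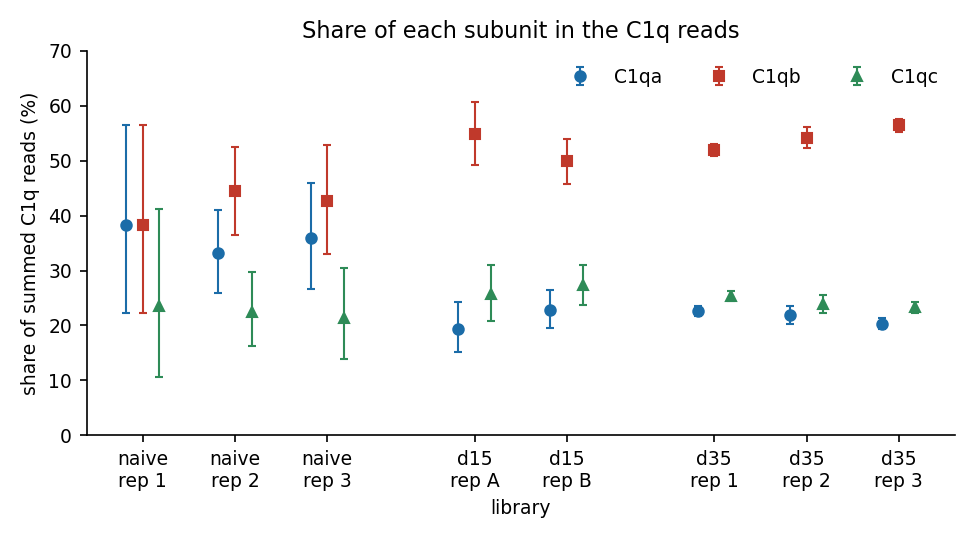
Percentage of the summed C1q reads from each subunit in each library, with exact 95% binomial intervals that cover counting error. C1qa is at 33.1% to 38.2% in the 3 naive libraries and at 19.4% to 22.8% in the 5 tumor libraries.

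Among the neighbouring genes 1 could be tested. Of the 3 nearest protein-coding genes on each side, Tex46, Lactbl1, Ephb2 and Epha8 are not analysed here, since the deposited table holds no row for them. The zinc finger gene Zbtb40 was at 8.61 ± 3.83 scaled CPM at d35, against 10.5 ± 2.57 in naive macrophages (SD, n = 3 each), a log2(value + 1) difference of -0.31 ± 0.26 (limma adjusted p = 0.430). Wnt4, a secreted signalling protein gene, stayed below the filter at 0.256 and 0.430 scaled CPM in d35 and naive macrophages.

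Outside C1q, 22 of 45 listed genes of the complement cascade, its regulators and its receptors could be tested. At d35, 6 rose, 1 fell and 15 did not pass, where 9.86% of all 11273 genes rose and 6.32% fell (1824 genes, or 16.2%, in all). At d15 none of the 22 passed with limma, where 4.37% of all genes did (2.37% higher and 2.00% lower). At an unadjusted p of 0.05, 1 was higher and 4 were lower at d15. edgeR and limma-voom called 0 there and DESeq2 called 2 lower, C5ar2 and Cr2. Cr2 passed the filter through naive libraries alone and was at 0.745 scaled CPM or lower in every tumor library, so its call is not counted as support.

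Among the proteases and substrates, 2 of 7 rose at d35, where 9.86% of all genes did. The list median difference was 0.39, against -0.002 for all genes. C1ra, which encodes the C1r protease that C1q activates, was at 47.0, 41.0 and 36.9 scaled CPM in d35 libraries, against 28.9, 27.7 and 26.0 in naive libraries. The groups did not overlap, and the log2(value + 1) difference was 0.57 ± 0.10 (limma adjusted p = 0.00575). The partner protease gene C1s1 stayed near the detection limit, at 1.1 ± 0.274 at d35 and 0.649 ± 0.666 in naive libraries (adjusted p = 0.349). C3, the central component that opsonises targets, was at 446, 294 and 300 scaled CPM at d35 and 201, 233 and 157 in naive libraries (difference 0.80 ± 0.19, adjusted p = 0.0199). The C3 call was lost without naive replicate 1, naive replicate 3 or d35 replicate 1 (adjusted p up to 0.0678). C4b, the C4 component cleaved by C1s, was chosen after its values were seen. It was at 110, 4.58 and 62.5 scaled CPM at d35, with replicate 2 just below the naive libraries (4.68 to 6.51), and at 17.5 and 13.0 at d15. Its difference of 2.44 ± 0.82 did not pass (adjusted p = 0.0664), edgeR and DESeq2 on recovered reads called it (adjusted p = 0.0196 and 0.00331), and without d35 replicate 2 the difference was 3.75 (adjusted p = 5.31e-06). C1ra and C4b have close copies in the mouse genome (C1rb and C4a), and how shared reads were assigned is not given in the sources used here.

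Among alternative pathway genes, Cfb, the factor B protease, was at 2.77 ± 0.873 at d35 and 1.47 ± 0.406 in naive macrophages (adjusted p = 0.0842), and the properdin gene Cfp at 245 ± 65.2 and 206 ± 13.2 (adjusted p = 0.332). In the regulator list 1 of 6 rose at d35, where 9.86% of all genes did. Clu, which encodes clusterin, an inhibitor of the terminal complex, was at 2.84, 2.93 and 2.14 scaled CPM in naive, at 2.79 and 2.84 in d15 and at 101, 25.7 and 110 in d35 libraries. Its d35 minus naive difference was 4.22 ± 0.43 (adjusted p = 0.000287), and its d15 level lay within the naive range. Serping1, the C1 inhibitor gene that restrains C1r and C1s, was at 2.52 ± 0.403 at d35 and 4.45 ± 2.16 in naive macrophages (adjusted p = 0.201).

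Receptor genes moved in both directions at d35, with 2 of 6 up and 1 down, where 9.86% of all genes rose and 6.32% fell. C3ar1, the receptor for the C3a fragment, was at 23.1, 5.83 and 10.1 scaled CPM at d35, against 0.319, 0.828 and 1.4 in naive libraries (difference 2.77 ± 0.39, adjusted p = 0.0019). Itgam, the alpha chain of complement receptor CR3, was at 11.9, 5.28 and 7.86, against 1.87, 2.04 and 2.07 (difference 1.58 ± 0.25, adjusted p = 0.00336). C5ar2, a second receptor for C5a, was at 18, 19.7 and 17.9, against 30.0, 24.2 and 22.3 (difference -0.43 ± 0.12, adjusted p = 0.0332). Its call was lost under 8 of 19 alternatives, with 1 library left out in 6 of them (naive replicates 1 and 2, both d15 replicates, d35 replicates 1 and 3; adjusted p up to 0.104). The more abundant C5ar1 (671 ± 74.8 at d35 and 750 ± 119 in naive macrophages) and the CR3 beta chain Itgb2 (2600 ± 365 and 2330 ± 57.7) did not pass (adjusted p = 0.379 and 0.363). The rises of C1ra, Clu, C3ar1 and Itgam held under all 19 alternatives. Between d35 and d15, where 4.59% of all genes were higher at d35, 2.80% were lower and 7.39% changed in all, Clu, C3ar1 and Itgam were higher at d35 (adjusted p = 0.00073, 0.00987 and 0.00204). Of these, Clu was lost with limma-voom and C3ar1 with limma-voom and without either d15 library.

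**Figure D3:**
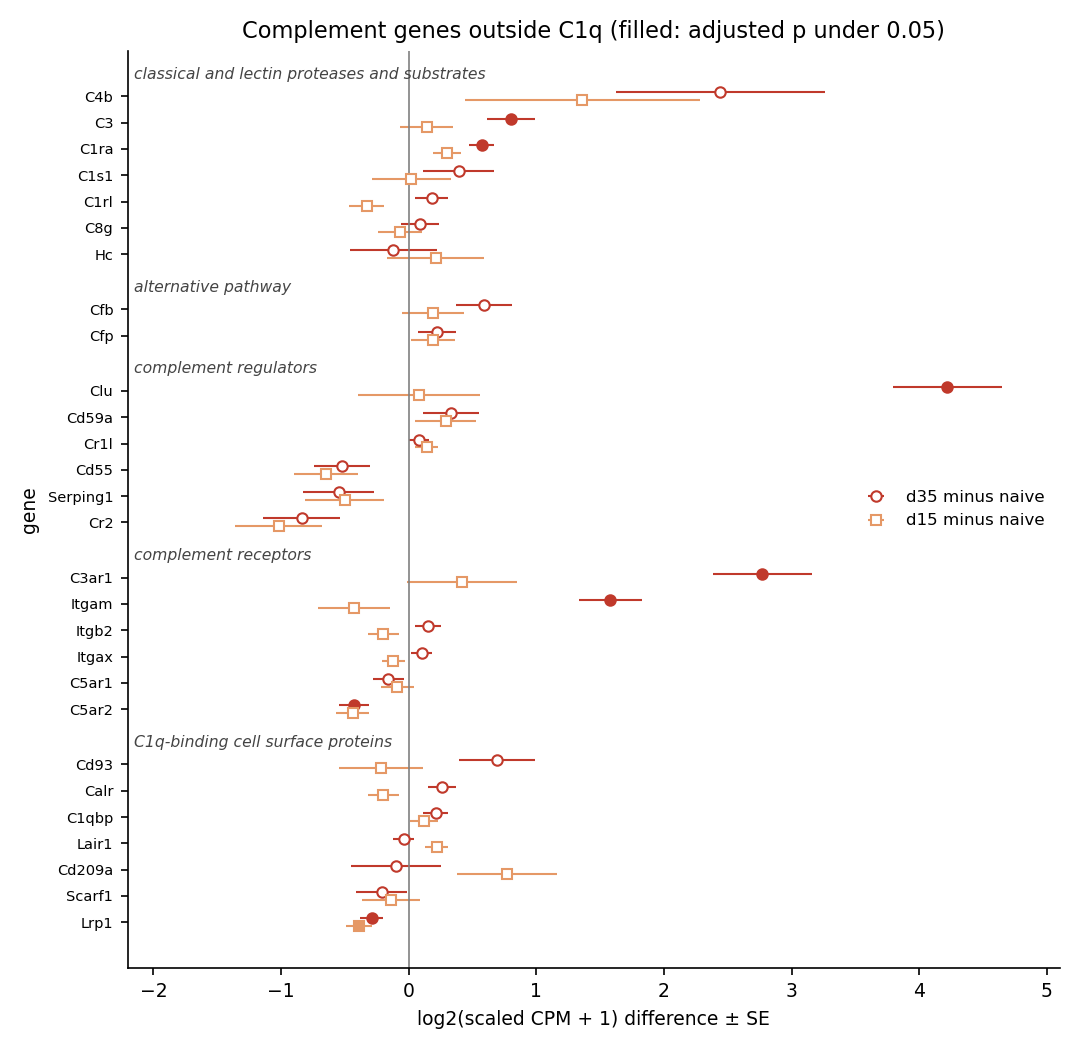
Differences from naive macrophages in log2(scaled CPM + 1), with SE, for complement genes outside C1q at d35 (circles) and d15 (squares); filled symbols passed limma at an adjusted p of 0.05. Clu (4.22), C3ar1 (2.77) and Itgam (1.58) have the largest called differences among the genes shown at d35, and among these genes only Lrp1, a C1q-binding protein gene, is called at d15.

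Of 7 genes for cell surface proteins reported to bind C1q, none passed as higher at d35 with limma, edgeR, DESeq2 or limma-voom, while 2 were higher at an unadjusted p of 0.05 with limma. Among all genes tested, limma called 9.86% higher at d35. Cd93, a C-type lectin-like receptor gene, was at 24.6, 33.9 and 11.9 scaled CPM at d35, against 11.5, 17.0 and 11.3 in naive libraries, which overlapped (difference 0.69 ± 0.30, adjusted p = 0.140). Lrp1, an endocytic receptor, was lower, at 813 ± 84.0 scaled CPM, against 990 ± 55.4 in naive macrophages (difference -0.29 ± 0.09, adjusted p = 0.0444). Lrp1 was lower at d15 too (756 ± 2.84, n = 2, against 990 ± 55.4, n = 3; adjusted p = 0.0476), lost under 8 of 18 alternatives. The d35 difference turned to 0.03 after length correction, and its call was lost without each single library other than d35 replicate 2 (adjusted p up to 0.800 over all alternatives). Calr, the calreticulin gene, was at 1440 ± 126 at d35 and 1210 ± 169 in naive macrophages (adjusted p = 0.131). It was higher at d35 than at d15 (1440 ± 126 against 1050 ± 81.1, adjusted p = 0.0458), a call lost under 8 of 18 alternatives. Among 5 other genes with a C1q-like head domain no member passed at d35 with limma, edgeR, DESeq2 or limma-voom, and 1 was higher at an unadjusted p of 0.05. Emilin1, an elastic fibre glycoprotein gene of that family, was higher at d15 instead, at 314 ± 25.5 (n = 2), against 175 ± 22.2 in naive macrophages (n = 3; difference 0.84 ± 0.11, adjusted p = 0.00521, lost without d15 replicate B at an adjusted p of 0.0973). Emilin1 was lower at d35 than at d15 (207 ± 15.8 against 314 ± 25.5, limma adjusted p = 0.00947), a call lost under 1 of 18 alternatives. Of 3 collectin and ficolin genes Colec12, a scavenger receptor with a collagen-like stalk, rose at d35 (170 ± 62.6 against 71.5 ± 19.9, adjusted p = 0.0138), under all alternatives.

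Of 15 macrophage transcription factor genes tested, 2 rose and 1 fell at d35, where 9.86% of all genes rose and 6.32% fell. Irf5, an interferon regulatory factor gene, rose at d35 (154 ± 10.8 against 96.5 ± 13.4, adjusted p = 0.00233). Bhlhe41, which helps maintain alveolar macrophage identity, fell (40.3 ± 4.82 against 66.3 ± 17.6, adjusted p = 0.0185), a call lost without d35 replicate 1 (adjusted p = 0.0569). The PU.1 gene Spi1 was at 581 ± 22.1 in naive macrophages, 590 ± 16.6 at d15 and 599 ± 16.5 at d35 (adjusted p = 0.682 for d35). Maf stayed below the filter, between 0.137 and 0.642 in all 8 libraries. At d15, Pparg, which directs alveolar macrophage differentiation, rose (514 ± 36.9 against 331 ± 24.7, adjusted p = 0.00852; lost without naive replicate 2 or d15 replicate B, adjusted p up to 0.152). Zeb2 fell at d15 (166 ± 14.7 against 230 ± 12, adjusted p = 0.0453), a call lost under 8 of 18 alternatives. Among all genes 2.37% rose and 2.00% fell at d15. Between d35 and d15, 3 of the 15 were higher at d35 and 1 was lower, against 4.59% and 2.80% of all genes. The lower one was Pparg (308 ± 27.6 against 514 ± 36.9, limma adjusted p = 0.00163).

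Markers of monocytes and interstitial macrophages moved with C1q in part. Of 28 listed genes, which leave out C1q itself, 23 could be tested, with a median difference at d35 of 0.55, against -0.002 for all genes. At d35 11 of the 23 rose, 12 did not pass and none fell, where 9.86% of all genes rose and 6.32% fell. 2 were lower at an unadjusted p of 0.05, and edgeR, DESeq2 and limma-voom called 0 lower and 11, 14 and 8 higher. The risers included Apoe, a lipid carrier gene (373, 81.7 and 131 scaled CPM at d35, against 46.1, 41.5 and 42.0 in naive libraries, adjusted p = 0.0146). Csf1r, the M-CSF receptor gene (637 ± 77.4 against 433 ± 40.2, adjusted p = 0.00715), the lipid receptor gene Trem2 (69.5 ± 21.6 against 33.7 ± 2.55, adjusted p = 0.00541) and the chemokine receptor gene Ccr2 (42.3 ± 22.3 against 16.1 ± 0.559, adjusted p = 0.0170) also rose. Leaving out naive replicate 2 ended the Apoe call (adjusted p = 0.0574), and that of Ccr2 ended without naive replicate 2 or 3 (adjusted p up to 0.0600). Aif1, Fcgr1, Fcgr4, Ms4a7, Mgl2 and Itgam were among the 11 too, and of these Aif1, Fcgr1, Fcgr4, Ms4a7 and Mgl2 each lost their call when one of several single libraries was left out. Aif1 passed the filter through d35 libraries alone. Of the 11, 6 were already at 10 scaled CPM or more in every naive library. The d35 order of C1q (replicate 1 highest and replicate 2 lowest) was held by 9 of the 11, against 33.8% of all 1112 genes that rose at d35. The 11 were picked by their d35 values in the same libraries and are not independent of each other, so this order is a description and not a separate result.

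Some other genes of the monocyte and interstitial macrophage list, named after their values were seen, were low. Others of the list were abundant in all 8 libraries, such as Selenop (778 to 1200 scaled CPM) and Cd14 (383 to 746). Cx3cr1, the fractalkine receptor gene, was at 1.83, 3.59 and 2.14 scaled CPM in naive, 0.245 and 0.349 in d15 and 1.79, 1.08 and 0.693 in d35 libraries. It fell at d15 (adjusted p = 0.0255), a call lost with limma-voom and without either d15 library or without naive replicate 2 or 3 (adjusted p up to 0.187). Ly6c2, Cd163, Timd4 and Tmem119 were each at 1.43 scaled CPM or lower in all 8 libraries, Lyve1 was at 2.5 to 5.94 in naive, 4.35 and 13.8 in d15 and 2.06 to 5.89 in d35 libraries, and Folr2 is not analysed here. The list summed to 2250 to 2330 scaled CPM in naive, 2390 to 2590 in d15 and 2440 to 3080 in d35 libraries, and its part in the C1q values was not tested. Of 20 alveolar macrophage markers, 4 rose (Cd68, Fabp5, Car4 and Ear2), 2 fell (Siglecf and Cidec) and 14 did not pass at d35, with a median difference of 0.02. Among all genes 9.86% rose and 6.32% fell at d35. The Cd68 rise held under all 19 alternatives. After length correction the differences of Fabp5 (0.44), Car4 (0.46) and Ear2 (0.01) no longer passed (adjusted p = 0.106, 0.1 and 0.939). Ear2 and Cidec were each lost under 5 of 19 alternatives, Ear2 without naive replicate 1 or 2 or d35 replicate 2 or 3, and Cidec without naive replicate 1 or 3 or d35 replicate 1 or 3. Car4 was lost without naive replicate 1. Siglecf was at 591 ± 47.1 at d35 and 719 ± 36.6 in naive macrophages (adjusted p = 0.0330), a call lost without any one library other than d35 replicate 2 (adjusted p up to 0.102). The alveolar list summed to 30600 to 38300 scaled CPM in naive, 41100 to 45900 in d15 and 41300 to 54800 in d35 libraries. At d15, Atp6v0d2, Ear2 and Pparg of that list rose and none of the 20 fell, where 2.37% of all genes rose and 2.00% fell. At an unadjusted p of 0.05, 1 of the 20 was lower at d15, edgeR and limma-voom called 0 lower and DESeq2 called 1. The d15 call of Ear2 was lost under 6 of 18 alternatives, namely without any one naive or d15 library and after length correction (difference 0.24; adjusted p up to 0.234 over all). That of Atp6v0d2 was lost without naive replicate 2 or either d15 library (adjusted p up to 0.171).

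Markers of other lung cells also differed at d35, where 6.32% of all genes fell and 9.86% rose. Of 12 endothelial genes 9 fell, and their sum was 190 to 252 scaled CPM at d35, against 311 to 429 in naive libraries. Of 4 B cell genes 3 fell (sum 3.78 to 6.93 at d35, against 10.4 to 15.5 in naive libraries), and of 5 fibroblast genes Col3a1 fell. limma-voom called 8 of the endothelial genes lower, edgeR and limma-voom called 2 of the B cell genes lower, and edgeR did not call Col3a1. The epithelial keratin gene Krt8 was at 18.8, 10.1 and 16.0 scaled CPM at d35, against 0.118, 0.333 and 0.336 in naive libraries, and Krt18 was at 18.5, 7.26 and 18.2 at d35, against 0.185, 0.333 and 0.124. Both passed the filter through d35 libraries alone, so their limma calls are not counted as support. The epithelial adhesion gene Epcam fell (120 ± 41.9 against 201 ± 15.5, adjusted p = 0.0194). The epithelial list as a whole summed to 285 to 412 scaled CPM at d35 and 356 to 412 in naive libraries. Of 5 neutrophil genes limma called S100a9 higher (adjusted p = 0.0497), a call lost with limma-voom and of a gene that also passed the filter through d35 libraries alone. S100a9 was at 5.92, 0.441 and 2.00 scaled CPM at d35, against 0.0168, 0.161 and 0.265 in naive libraries, and replicate 2 was the lowest d35 library for it and for both keratins, as for C1q. None of 5 dendritic cell genes and none of 3 T and NK cell genes passed at d35 with limma, edgeR or limma-voom, and DESeq2 called Klrb1c higher. Klrb1c (1.61, 0.289 and 2.03 scaled CPM at d35) also passed the filter through d35 libraries alone, so its call is not counted as support. At an unadjusted p of 0.05, 0 dendritic cell genes and 1 T and NK cell gene differed. The part of these cells in the C1q values was not tested.

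**Figure D4:**
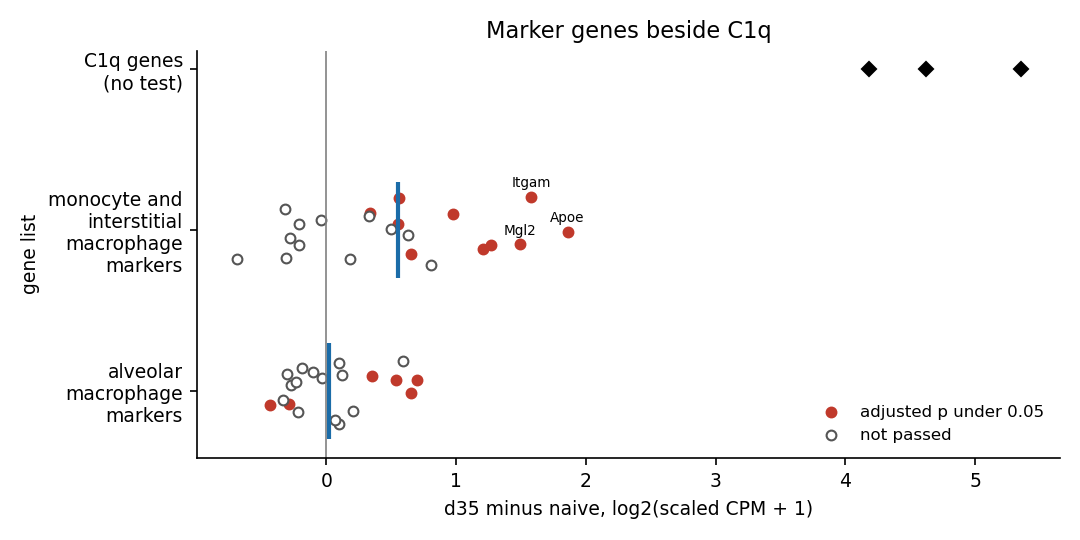
Differences between d35 and naive macrophages in log2(scaled CPM + 1) for the C1q genes (4.18 to 5.35, described without a test) and for marker genes of monocytes and interstitial macrophages and of alveolar macrophages. Blue bars are medians of the whole lists (0.55 and 0.02), not all members are drawn, and vertical scatter has no meaning.

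The genes whose pattern over the 8 libraries was most like the mean of the 3 C1q genes were named by Pearson's r of log2(value + 1), among 8797 tested genes with a mean of at least 3 on that scale. They were H2-M2 (r = 0.995), Igtp (0.993), Acer3 (0.992), Ccl17 (0.991), Pgam1 (0.990), H2-D1 (0.990), H2-M3 (0.989), Cxcl16 (0.987), Mmp14 (0.986) and Tpi1 (0.986). These r values describe 8 libraries in 3 separate groups and are dominated by the difference of d35 from the rest. All 10 had the d35 order of C1q, with replicate 1 highest and replicate 2 lowest. The choice by r over the same libraries favoured that order, so it is not a separate result. It was held by 15.0% of all tested genes and by 33.8% of the 1112 that rose at d35. Their sizes of change were very different. H2-M2, a nonclassical MHC class I gene, was at 0.588, 0.753 and 0.972 scaled CPM in naive, at 3.67 and 4.99 in d15 and at 243, 53.5 and 108 in d35 libraries. Ccl17, a chemokine gene, was at 0.488, 0.704 and 1.15 in naive, at 4.58 and 8.26 in d15 and at 102, 42.5 and 72.4 in d35 libraries. Both went through d15 levels between the other groups, as C1q did, a pattern that the choice by r favoured. Without the d35 libraries, H2-M2, Ccl17 and Mmp14 would not have reached the mean of 3 needed to be compared. Tpi1, a glycolytic enzyme gene, was at 148 ± 4.96 in naive macrophages, 164 ± 1.18 at d15 and 193 ± 10.7 at d35, so a high r did not need a large change. H2-M2 and H2-D1 have close relatives among MHC class I genes, and their read assignment is uncertain.

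**Figure D5:**
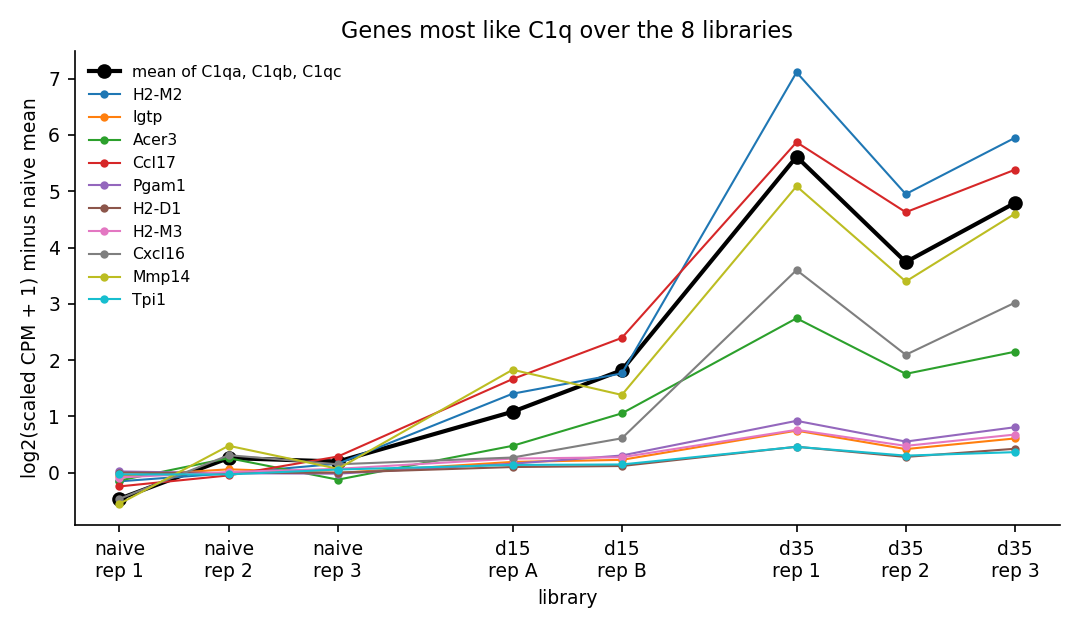
log2(scaled CPM + 1) minus the naive mean in each library for the mean of the 3 C1q genes (black) and the 10 genes with the highest Pearson r to it; lines link the points of a gene and imply no order of replicates. At d35 Ccl17 (5.29) and Mmp14 (4.36) lie on average within the range of the single C1q genes (4.18 to 5.35), and H2-M2 (6.01) lies above it. Tpi1 (0.38), H2-D1 (0.39), Igtp (0.59), H2-M3 (0.64) and Pgam1 (0.76) stay close to 0.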

How the data were processed

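RNA of sorted alveolar macrophages was sequenced after low-input cDNA synthesis, per the labels' protocols. The submitters' processing notes name STAR 2.5, mm10 and edgeR. Which program, annotation and strand setting produced the counts is not given in the sources used here. The authors' deposited expression table holds a scaled signal for 12701 genes, whose values had the form (reads + 0.5) over a scaled library size, expressed as CPM. All values (100%) came out as whole reads within 0.001. A second table deposited by the authors covers d15 with log2 fold changes, p-values and a test score, of which the fold changes were used.

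Values are given as scaled CPM. limma 3.58.1 (R 4.3.3) was fitted with an intensity trend on log2(value + 1), with group as the only term and all 8 libraries. It covered the 11273 genes that reached a value of 1 in 2 or more libraries, and calls were made at a Benjamini-Hochberg adjusted p of 0.05. Alternatives were edgeR 4.0.16, DESeq2 1.42.0 and limma-voom on recovered reads, other pseudocounts, filters and scaling, a length correction and leaving out each library. The fit was tested on simulated data. Read shares have exact (Clopper-Pearson) 95% intervals, which cover counting error only. Depth was 27465745 to 39572173 recovered reads per library. Gene lengths and positions are from GENCODE M21 (GRCm38), the longest basic transcript of each gene, and 12639 symbols (99.5%) matched.

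The C1q genes and the gene lists were chosen with earlier results of these data known. Named genes were, per list and comparison, all members past the test, or else the 2 with the smallest adjusted p, and for markers of other cells the member with the highest mean. Not all of them are described for each comparison. Of the calls between d35 and d15 only some are given, while the counts of named calls include the others. They also include the 10 genes most like C1q and the 3 nearest protein-coding genes on each side of the C1q locus. Other list members named beside them were chosen after their values were seen. Column numbers and sample titles disagree at d15, so these libraries are called replicates A and B. Results for some genes of these lists are not reported here, while counts over the lists include them.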

Additional observations from a re-analysis of the deposited data

How the results depend on the processing

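The mean log2 difference of the 3 C1q genes was 1.45 for d15 minus naive, 4.72 for d35 minus naive and 3.26 for d35 minus d15, and it kept its direction under all alternatives run. Methods that add less to low values gave larger differences. For d15 minus naive they gave 2.16 with a pseudocount of 0.1, 2.18 with edgeR, 2.20 with DESeq2 and 2.27 with limma-voom, and for d35 minus naive 5.69, 5.88, 5.90 and 5.81. Leaving out 1 library gave 1.08 to 1.82 at d15, 4.27 to 5.20 at d35 and 2.81 to 3.75 between the times. Shares per kb in place of read shares gave 22.9% for C1qa at d35, and 22.1%, 24.3% and 20.4% for C1qc at d35, at d15 and in naive libraries.

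The number of genes changed depended on single libraries and on the method. At d15 it was 493, with 12 to 1079 when 1 library was left out, 1451 with DESeq2 and 1179 with only the 2 groups compared in the fit. At d35 it was 1824, with 635 to 2294 when 1 library was left out and 1161 after length correction. Between the times it was 833, with 193 to 1052 when 1 library was left out, 1368 with DESeq2 and 421 with only the 2 groups. The cause was not tested. Of 27 named calls at d35, 11 held under all alternatives, as did 0 of 7 at d15 and 4 of 18 between the times. The difference of Lrp1 at d35 turned to 0.03 after length correction, and that of Colec12 at d15, never called, to -0.0025 without naive replicate 1 (up to 0.41 without another library).

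Deviations from the group mean in same-numbered naive and d35 libraries had r across genes of -0.007, -0.046 and 0.147. Pairs with unlike numbers had r from -0.1 to 0.103. With groups this small, these values cannot settle whether same-numbered libraries share more than a number. A replicate block left 1460 genes at d35 and ended 5 of the 27 named calls. Naive C1q values rest on 8 to 71 reads a gene.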
